A study of Mus musculus with 10 samples.

Results

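The chromatin of 9 genes of the class I phosphoinositide 3-kinase (PI3K) pathway was read from bulk ATAC-seq peaks, which mark stretches of open chromatin, in regulatory T cells (Tregs) of spleen and lung. The 9 genes were the catalytic subunits Pik3ca, Pik3cb, Pik3cd and Pik3cg, the regulatory subunits Pik3r1 and Pik3r5, and the phosphatases Inpp5d, Inpp4b and Phlpp1, of 17625 protein-coding genes with a peak. Every peak that lay in the body of a member or within 10 kb of it in the GRCm38 annotation was taken, which gave 188 of 97385 peaks. A peak was assigned to a gene by position alone. Of the 188 peaks, 187 passed the filter on low counts, and the remaining one, in an intron of Phlpp1, was not tested.

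The libraries came from 10-day-old mice. All groups carried a Cre recombinase expressed from Foxp3, the lineage factor of Tregs, so that deletion was aimed at Tregs and sorting followed the YFP fused to the Cre (CD4+Foxp3-YFP+TCRb+ cells). The Vps34-deficient group was Foxp3CrePik3c3fl/fl, in which Pik3c3, the gene of the class III PI3K Vps34, is floxed on both copies. The control group was Foxp3Cre with Pik3c3 +/+ or +/fl, so that some controls may also have lost 1 copy. There were 2 control and 4 Vps34-deficient spleen libraries, and 2 control and 2 Vps34-deficient lung libraries. The labels did not say that libraries of a group came from separate animals, so p-values measured only the spread between these samples. In a bulk sample, fewer cells of a state with an open site and a less open site in each cell cannot be told apart.

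Class I PI3Ks phosphorylate a membrane lipid to PIP3, which recruits Akt and so drives mTORC1 and keeps Foxo factors out of the nucleus. The p110 catalytic subunits work with a regulatory subunit that couples them to tyrosine-phosphorylated receptors or to G proteins. Phosphatases oppose the signal at successive steps: SHIP1 (Inpp5d) removes the 5-phosphate of PIP3, Inpp4b removes the 4-phosphate of the product, and Phlpp1 dephosphorylates Akt. In Tregs the strength of this pathway is held low, and its activity bears on their activation, survival and stability. Vps34 is a different, class III enzyme, which makes the monophosphorylated lipid of endosomes and autophagosomes.

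Accessibility is given as counts per 1000000 counts of the library (CPM), and a peak's place as the distance in kb of its centre from the annotated start of its gene, positive into the gene. Differences are log2 fold changes with their standard error (SE) from the quasi-likelihood test of edgeR, and its p-values were adjusted by Benjamini-Hochberg over the 97109 tested peaks. A peak was called where the adjusted p was below 0.05 and the log2 fold change exceeded 0.5 in size. The contrasts were of 3 kinds: the genotype effect (Vps34-deficient against control) within each tissue and as an average with tissue as a term, the tissue effect (lung against spleen) within each genotype and as an average with genotype as a term, and the interaction of genotype and tissue.

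Library totals ran from 9405823 to 22439699 counts, with a median of 32 to 72 counts per peak. Peaks on chromosome Y held 56.9 to 67.6 CPM in 5 libraries and 7.03 to 21.4 CPM in the other 5, and both kinds occurred in every group. Peaks at the starts of 6 Treg genes, Foxp3 among them, summed to 220 to 290 CPM across the libraries. Peaks at Pik3c3 itself did not separate the genotypes: 0 of its 6 tested peaks was called in either tissue, and its strongest peak differed by 0.09 (log2) between the genotypes in spleen and by 0.07 in lung, so these peaks gave no check of the labels. Among marker lists, start-site peaks of 4 myeloid genes summed to 42.6 to 44.7 CPM in spleen control, 30.5 to 37.5 CPM in spleen Vps34-deficient, 49.1 to 54.3 CPM in lung control and 31.8 to 32.6 CPM in lung Vps34-deficient libraries, with no peak at Csf1r or Lyz2. Those of 7 effector Treg genes summed to 232 to 245, 198 to 219, 276 to 339 and 235 to 241 CPM in the same order. Both lists were lower in Vps34-deficient than in control libraries of the same tissue without overlap. A list of CD8 T and NK cell genes, with no peak at 3 of its 6, summed to 28.1 to 32.5, 26.6 to 37.9, 23.6 to 27.6 and 33 to 39.6 CPM in that order, so it was higher in lung Vps34-deficient than in lung control libraries without overlap and overlapped in spleen. A list of lung epithelium genes, with no peak at 2 of its 6, was lower in spleen Vps34-deficient libraries (30.3 to 33.1 CPM) than in spleen control libraries (36.6 and 37.6 CPM) and overlapped in lung. Lists of B cell, endothelial, resting Treg and Treg genes overlapped between the genotypes in both tissues. The part of these lists in the genotype effects that follow was not tested.

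The members differed widely in how much open chromatin they held. Inpp4b, at chr8:81342556-82127914 on the plus strand, had 68 peaks along 785.4 kb, Phlpp1 (chr1:106171752-106394250, plus) 27, Pik3r1 (chr13:101680563-101768217, minus) 24, Pik3r5 (chr11:68432121-68497849, plus) 16 and Inpp5d (chr1:87620312-87720507, plus) 15. Pik3cd (chr4:149649168-149702571, minus) had 14, Pik3ca (chr3:32397671-32468486, plus) 12, Pik3cg (chr12:32173473-32208659, minus) 7 and Pik3cb (chr9:99036654-99140621, minus) 5. Of all 188 peaks, 12 overlapped a coding exon, 14 others an untranslated exon and 150 introns only, and 12 lay outside the genes. The 1 kb on either side of an annotated start was overlapped by 22. The strongest were promoter peaks, led by Phlpp1 with a mean of 147.2 CPM and Pik3r1 with 122.3 CPM, whereas 110 peaks had a mean below 5 CPM.

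In the genotype comparison, 16 of the 187 tested peaks were called in at least 1 contrast, 13 lower (6.95%) and 3 higher (1.6%) in Vps34-deficient Tregs, against 5.21% and 4.2% of all tested peaks by the sign of the average effect, and they lay in 6 of the 9 genes. Averaged over tissues, 9 peaks were lower (4.81% of the members) and 1 was higher (0.535%), against 4.05% and 3.52% of all tested peaks. In spleen, 2 were lower (1.07%) and 0 higher, against backgrounds of 1.02% and 0.44%. In lung, 8 were lower (4.28%) and 2 higher (1.07%), against 3.74% and 1.22%. An unadjusted p below 0.05 was found for 16 members in spleen (8.56%, against 14.3% of all peaks), 46 in lung (24.6%, against 20.3%) and 52 on average (27.8%, against 24.3%). The shares of lower peaks were thus near the background in each contrast, and so was the share of higher peaks in lung, while 1 higher peak in the average effect was fewer than the background share. The median log2 fold change of the members was 0.04 in spleen and -0.18 in lung, beside 0.05 and 0.02 over all peaks. Groups that did not overlap within either tissue, in the same direction, were found for 21 members (11.2%) and for 12.6% of all peaks, by CPM and including near-ties at low counts. The counts were sensitive to single libraries. The spleen count of 2 became 0 without spleen control 1, spleen control 2 or spleen Vps34-deficient 2, 1 without spleen Vps34-deficient 4, and 4 without lung control 1. The lung count of 10 became 17, 3, 2 or 6 without lung control 1, lung control 2, lung Vps34-deficient 1 or lung Vps34-deficient 2, and the average count of 10 became 5 without lung control 2 or lung Vps34-deficient 1. In a fit to lung libraries alone, the 3 lung calls that held were Pik3ca +40.3 kb, Pik3r5 +4.4 kb and Inpp4b +269.1 kb.

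**Figure D1:**
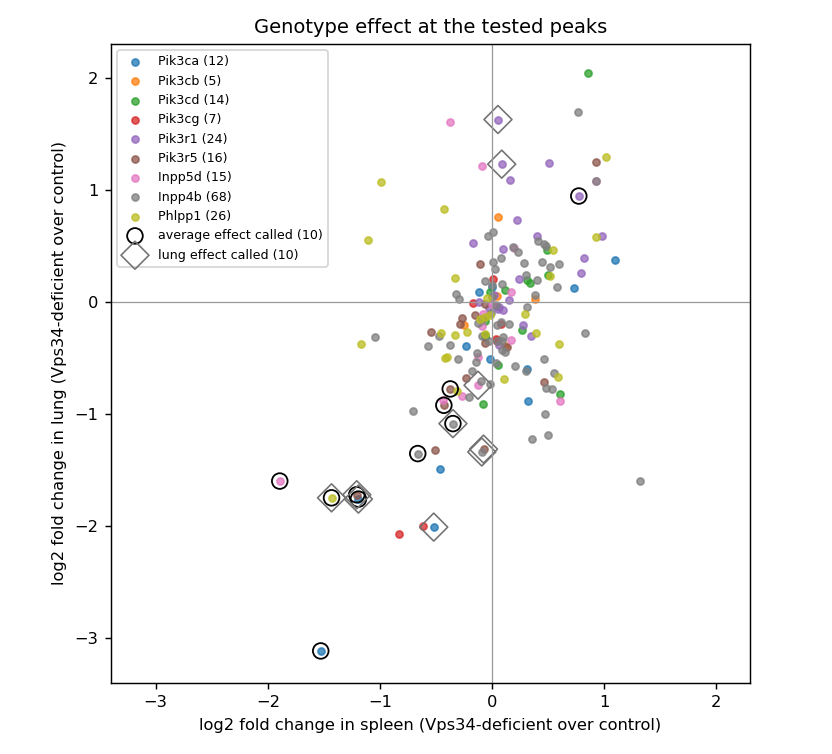
Log2 fold change of Vps34-deficient over control Tregs in spleen (x axis) and in lung (y axis) for the 187 tested peaks of the 9 genes, coloured by gene; circles mark the 10 peaks called in the average effect and diamonds the 10 called in lung. The Pik3ca peak at +40.3 kb (-1.19 in spleen, -1.76 in lung) and the Phlpp1 peak at +16.0 kb (-1.43 and -1.75) lie low on both axes.

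All 9 peaks called lower in Vps34-deficient libraries on average are shown by sequence, because they make up most of the calls of that comparison. They read 5′ to 3′ on the plus strand of GRCm38, each cut to the central 300 bases where the peak was longer: chr3:32437394-32437632 and chr3:32437843-32438142 in Pik3ca, chr11:68432752-68433031, chr11:68435550-68435849 and chr11:68442399-68442698 in Pik3r5, chr1:87723408-87723685 downstream of Inpp5d, chr8:81756740-81757039 and chr8:81780230-81780436 in Inpp4b, and chr1:106187556-106187855 in Phlpp1. Capitals mark matches, on either strand, to the AP-1 letters TGANTCA, the ETS letters AGGAAGT, the forkhead letters TGTTTAC, the RUNX letters TGTGGTT, the TCF/LEF letters CTTTGAT or the NF-kB letters GGGANTTCC.
Pik3ca +39.8 kb: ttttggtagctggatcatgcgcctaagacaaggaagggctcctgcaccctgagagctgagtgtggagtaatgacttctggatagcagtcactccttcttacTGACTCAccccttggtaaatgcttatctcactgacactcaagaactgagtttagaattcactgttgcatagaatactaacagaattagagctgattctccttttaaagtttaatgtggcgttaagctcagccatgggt
Pik3ca +40.3 kb: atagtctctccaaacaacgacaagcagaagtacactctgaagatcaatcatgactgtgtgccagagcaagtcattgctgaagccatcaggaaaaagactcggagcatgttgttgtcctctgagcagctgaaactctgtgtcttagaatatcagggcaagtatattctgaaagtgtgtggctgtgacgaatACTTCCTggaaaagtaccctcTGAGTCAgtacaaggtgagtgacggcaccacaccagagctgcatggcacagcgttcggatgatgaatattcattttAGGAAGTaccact
Pik3r5 +0.8 kb: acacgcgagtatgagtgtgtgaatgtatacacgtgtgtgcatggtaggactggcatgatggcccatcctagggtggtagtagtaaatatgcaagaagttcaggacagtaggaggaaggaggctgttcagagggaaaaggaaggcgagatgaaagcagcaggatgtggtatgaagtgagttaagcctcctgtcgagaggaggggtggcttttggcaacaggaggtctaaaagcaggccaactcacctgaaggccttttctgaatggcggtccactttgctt
Pik3r5 +3.6 kb: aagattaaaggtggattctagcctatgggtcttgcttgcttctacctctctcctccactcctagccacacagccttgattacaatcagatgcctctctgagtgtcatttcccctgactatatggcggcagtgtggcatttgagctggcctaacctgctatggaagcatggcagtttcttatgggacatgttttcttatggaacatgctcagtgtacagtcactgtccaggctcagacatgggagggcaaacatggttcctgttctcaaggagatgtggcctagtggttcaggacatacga
Pik3r5 +10.4 kb: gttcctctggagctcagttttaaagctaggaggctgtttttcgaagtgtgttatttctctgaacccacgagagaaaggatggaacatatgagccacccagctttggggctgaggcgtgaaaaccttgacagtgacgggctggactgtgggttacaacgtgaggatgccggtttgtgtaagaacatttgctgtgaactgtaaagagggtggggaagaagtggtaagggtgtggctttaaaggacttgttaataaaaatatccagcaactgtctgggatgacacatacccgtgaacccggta
Inpp5d +103.2 kb: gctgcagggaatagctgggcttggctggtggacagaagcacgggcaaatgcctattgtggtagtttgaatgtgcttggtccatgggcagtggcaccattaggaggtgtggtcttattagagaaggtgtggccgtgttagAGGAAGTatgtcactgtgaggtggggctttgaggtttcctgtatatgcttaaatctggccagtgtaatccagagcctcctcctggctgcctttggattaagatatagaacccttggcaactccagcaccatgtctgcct
Inpp4b +414.3 kb: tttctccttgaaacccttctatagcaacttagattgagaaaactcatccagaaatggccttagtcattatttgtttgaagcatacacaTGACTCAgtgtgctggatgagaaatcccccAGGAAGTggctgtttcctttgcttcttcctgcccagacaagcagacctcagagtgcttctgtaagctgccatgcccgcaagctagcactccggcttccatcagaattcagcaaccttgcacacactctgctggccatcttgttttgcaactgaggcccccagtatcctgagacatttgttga
Inpp4b +437.8 kb: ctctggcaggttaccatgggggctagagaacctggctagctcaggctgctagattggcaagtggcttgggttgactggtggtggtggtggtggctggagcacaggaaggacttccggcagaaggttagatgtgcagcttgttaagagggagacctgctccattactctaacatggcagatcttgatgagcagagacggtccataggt
Phlpp1 +16.0 kb: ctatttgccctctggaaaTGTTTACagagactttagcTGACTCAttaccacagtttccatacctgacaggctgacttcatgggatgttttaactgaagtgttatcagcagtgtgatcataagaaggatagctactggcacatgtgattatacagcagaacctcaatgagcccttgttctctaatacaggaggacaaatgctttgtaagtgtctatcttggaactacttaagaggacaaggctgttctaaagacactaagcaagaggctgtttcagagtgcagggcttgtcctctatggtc

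In windows of 300 bases at the peak centres, the AP-1 letters occurred in 4 of the 9 peaks called lower on average, in 33 of the 188 member peaks (17.6%) and in 13.0% of 97250 windows over the whole table. The 4 were both Pik3ca peaks, Inpp4b +414.3 kb and Phlpp1 +16.0 kb. The ETS letters were found in 3 of the 9, in 23.4% of the member peaks and in 16.0% of all windows. The forkhead letters were found in 1 of the 9, the Phlpp1 site, in 5.85% of the member peaks and in 4.34% of all windows. RUNX, TCF/LEF and NF-kB letters were in 0 of the 9, and in 10.8%, 5.75% and 1.91% of all windows. These are matches of letters in a window and no measure of binding.

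Pik3ca encodes p110alpha, the catalytic subunit that most cells use downstream of growth factor receptors. Its peak in a coding exon at +40.3 kb (chr3:32437778-32438207) had the smallest p of the members in the average genotype effect. It held 4.99 and 5.51 CPM in spleen control and 1.88, 1.96, 2.44 and 2.87 CPM in spleen Vps34-deficient libraries. In lung the controls held 9.36 and 16.1 CPM, and Vps34-deficient libraries 2.76 and 5.08 CPM. All Vps34-deficient libraries lay below all controls of the same tissue, and the lung controls were above the spleen controls. The log2 fold change was -1.19 ± 0.274 (SE; adjusted p = 0.0248) in spleen, -1.76 ± 0.32 (adjusted p = 0.00156) in lung and -1.44 ± 0.215 (adjusted p = 8.92e-05) on average. The average call held in all 19 alternatives. The spleen call was lost without either spleen control, without Vps34-deficient spleen library 1 or 2 (-1.32 to -1.15) and with a replicate block (-1.45). The lung call was lost without lung control 2 (-1.26) or lung Vps34-deficient 1 (-1.28).

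A weaker neighbour in Pik3ca lay 145 bp away, in an intron at +39.8 kb. It held 2.34 and 2.68 CPM in lung control but 0 and 0.635 CPM in lung Vps34-deficient libraries, beside 0.267 and 0.827 CPM in spleen control and 0 to 0.278 CPM in spleen Vps34-deficient libraries. Groups overlapped in spleen and did not overlap in lung, where 30 fragments stood against 3, a ratio of 9.23 with a 95% counting interval of 2.87 to 47.3. Its average log2 fold change was -2.25 ± 0.651 (adjusted p = 0.0295), a call lost without spleen control 2 (-2.04), lung control 2 (-2.10) or lung Vps34-deficient 1 (-1.70), and with a replicate block (-2.36). A further Pik3ca peak, at +11.5 kb (chr3:32408954-32409416), was called lower in lung, where control libraries held 2.13 and 2.26 CPM and Vps34-deficient ones 0.65 and 0.423 CPM (-2.01 ± 0.53, adjusted p = 0.026), and not without lung control 2 or either Vps34-deficient lung library (-2.30 to -1.69). This peak was also not called in lung on halved counts (-1.96) or in a fit to lung libraries alone (-2.01). In spleen the Vps34-deficient libraries, at 1.71 to 3.48 CPM, lay below the controls at 3.72 and 3.83 CPM, and its average effect missed the threshold (adjusted p = 0.0514).

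The other catalytic subunits held no peak called for genotype in any contrast. Pik3cd, which encodes the leukocyte subunit p110delta and is the main class I catalytic subunit of T cell receptor and costimulatory signalling, had its smallest p at a promoter-proximal peak of a shorter transcript at +38.5 kb. This peak held 8.73 and 8.82 CPM in spleen control and 10.6 to 14.4 CPM in spleen Vps34-deficient libraries, without overlap, but 6.35 and 7.87 against 7.47 and 9.53 CPM in lung (average 0.40 ± 0.15, adjusted p = 0.0961). For Pik3cg, the G protein-coupled subunit p110gamma, the peak at +14.1 kb held 1.07 and 1.38 CPM in spleen control and 0.489 to 0.861 CPM in spleen Vps34-deficient libraries, and 0.425 and 1.83 against 0.162 and 0.423 CPM in lung. The spleen groups did not overlap, while in lung the lower control and the higher Vps34-deficient library held 4 counts each and differed in CPM through their library totals alone. Its average log2 fold change was -1.23 ± 0.48 (adjusted p = 0.109). Pik3cb, which encodes the widely expressed p110beta, had its smallest p at +76.2 kb, with overlapping values in both tissues (0.33 ± 0.34, adjusted p = 0.598).

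Among the regulatory subunits, the peaks called for genotype were higher in Vps34-deficient libraries at Pik3r1 and lower at Pik3r5, a difference between the genes that was not itself tested. Pik3r1 encodes p85alpha, which binds and stabilises the p110 subunits of tyrosine kinase signalling. Its peak in an untranslated exon at +11.4 kb (chr13:101756703-101756956) held 1.93 and 2.67 CPM in spleen control and 3.02, 4.03, 4.15 and 4.65 CPM in spleen Vps34-deficient libraries, and 1.69 and 2.13 against 2.75 and 4.55 CPM in lung. Vps34-deficient libraries were above controls in both tissues without overlap, and this was the 1 member peak called higher on average (0.84 ± 0.236, adjusted p = 0.0253). The call was lost without spleen control 2, spleen Vps34-deficient 2, lung control 2 or lung Vps34-deficient 1, with values of 0.70 to 0.77.

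The other Pik3r1 calls were in lung. The peak at +24.8 kb (chr13:101743304-101743556) held 0.638 and 1.55 CPM in lung control and 4.22 and 2.96 CPM in lung Vps34-deficient libraries (1.63 ± 0.447, adjusted p = 0.0329), with overlapping groups in spleen. The peak at +7.2 kb (chr13:101760832-101761287) held 1.49 and 1.69 against 4.22 and 3.39 CPM in lung (1.23 ± 0.346, adjusted p = 0.0377), and 3.72 to 5.1 CPM in all 6 spleen libraries. The value at +24.8 kb rose to 2.51 without lung control 2. Both lung calls were lost in a fit to lung libraries alone (1.63 and 1.23), without lung control 1 (1.29 and 1.25) or lung Vps34-deficient 1 (1.42 and 1.13), and the one at +7.2 kb also without lung control 2 (1.38), spleen Vps34-deficient 2 (1.22) or spleen Vps34-deficient 3 (1.22). A replicate block lost both as well (1.64 and 1.22), also with the lung numbers crossed (1.65 and 1.23). Halved counts lost the one at +7.2 kb (1.26). Over all 24 Pik3r1 peaks, 21 had an average genotype effect above 0, with a median of 0.18, and 1 of them was called. Of the 187 tested member peaks 85 were above 0, and the median over all peaks was 0.04. Peaks of 1 gene are not independent of each other.

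**Figure D2:**
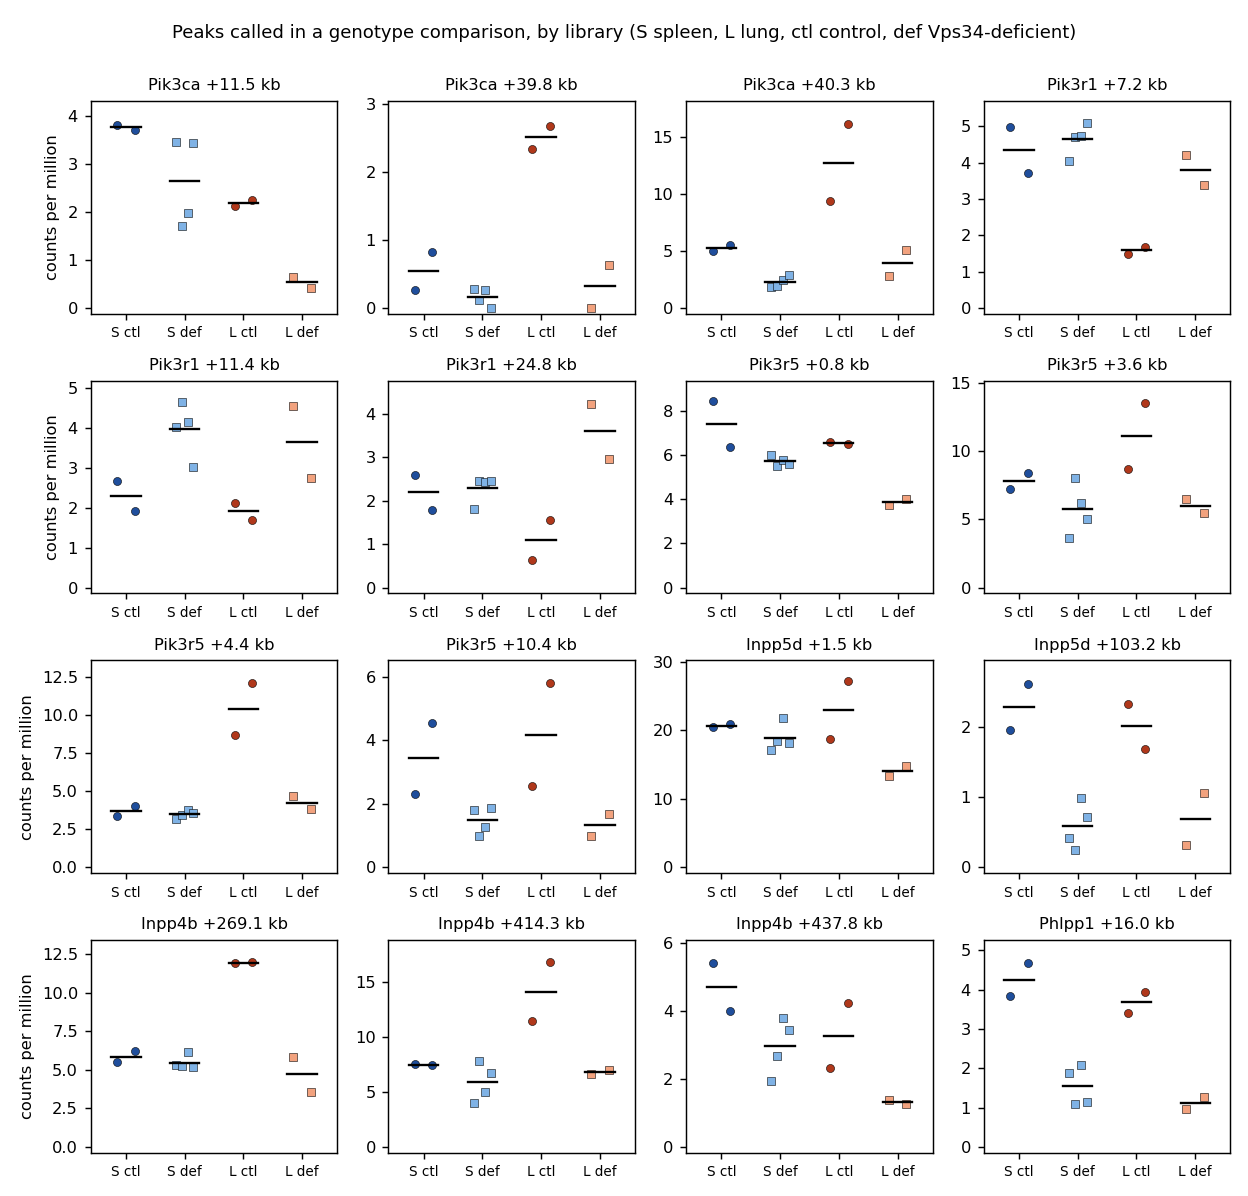
CPM of the 16 member peaks called in at least 1 genotype contrast, in every library by group, 1 panel per peak with a linear axis from 0; black bars are group means. The control mean stands above the Vps34-deficient mean in both tissues in 13 panels, and the 3 Pik3r1 panels show the opposite order.

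Pik3r5 encodes p101, the regulatory partner of p110gamma downstream of G protein-coupled receptors. Of its 16 peaks, 14 had an average genotype effect below 0, beside 102 of the 187 tested member peaks, and 3 were called. The intronic peak at +10.4 kb (chr11:68442398-68442699) held 2.32 and 4.55 CPM in spleen control and 0.979, 1.26, 1.81 and 1.87 CPM in spleen Vps34-deficient libraries. In lung it held 2.55 and 5.79 CPM in control and 0.975 and 1.69 CPM in Vps34-deficient libraries. Controls were above Vps34-deficient libraries in both tissues, although the controls of each tissue also differed from each other. The average log2 fold change was -1.40 ± 0.304 (adjusted p = 0.00442), and its call held in all 19 alternatives. The call in lung (-1.72 ± 0.496, adjusted p = 0.0427) was lost without spleen control 2 (-1.63), spleen Vps34-deficient 4 (-1.72), lung control 2 (-0.94) or either Vps34-deficient lung library (-1.27 and -2.06). It was also lost with a filter of 30 counts (-1.64), a chromosome Y covariate (-1.59) and a replicate block (-1.65, and -1.66 with the lung numbers crossed). In a fit to lung libraries alone it was lost too (-1.71).

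Further Pik3r5 sites were called lower in lung or on average. At +4.4 kb (chr11:68436432-68436684), lung control libraries held 8.72 and 12.1 CPM and lung Vps34-deficient libraries 4.71 and 3.81 CPM, while all 6 spleen libraries held 3.2 to 4.06 CPM. Lung control libraries therefore stood above every other library, and the lung effect was -1.32 ± 0.276 (adjusted p = 0.0053), lost without lung control 2 (-1.002) or lung Vps34-deficient 2 (-1.098). Near the start, the peaks at +0.8 kb (-0.52 ± 0.168, adjusted p = 0.0483) and +3.6 kb (-0.63 ± 0.198, adjusted p = 0.0436) were called lower on average. The groups did not overlap in either tissue at +0.8 kb, where spleen control libraries held 6.34 and 8.42 CPM and spleen Vps34-deficient libraries 5.5 to 5.98 CPM, and they overlapped in spleen at +3.6 kb. The effects in spleen and lung were -0.37 and -0.78 at +0.8 kb and -0.43 and -0.92 at +3.6 kb, with unadjusted edgeR p-values for the interaction of 0.236 and 0.221. Both calls were marginal: the one at +0.8 kb was lost in 7 and the one at +3.6 kb in 6 of the 10 fits that left out a library, lung control 2 and either Vps34-deficient lung library among them. A chromosome Y covariate (-0.53 and -0.62) and a replicate block (-0.54 and -0.65) also lost both calls. The one at +0.8 kb was lost with library-size scaling (-0.52) and GC offsets (-0.51) too. Of the 19 alternatives, 11 lost the call at +0.8 kb and 8 the call at +3.6 kb.

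The phosphatases held 6 of the 13 lower peaks (46.2%) and 109 of the 187 tested peaks (58.3%). Inpp5d, the gene of SHIP1, had a peak downstream of its end at +103.2 kb (chr1:87723408-87723685) with 1.96 and 2.62 CPM in spleen control and 0.245, 0.417, 0.718 and 0.993 CPM in spleen Vps34-deficient libraries. In lung, control libraries held 1.69 and 2.34 CPM and Vps34-deficient libraries 0.325 and 1.06 CPM. All controls lay above the Vps34-deficient libraries of their tissue, and the average log2 fold change was -1.79 ± 0.392 (adjusted p = 0.00495). A promoter-proximal Inpp5d peak at +1.5 kb (chr1:87621462-87622150) was the 1 promoter peak called in lung, with 18.7 and 27.2 CPM in control and 13.3 and 14.8 CPM in Vps34-deficient libraries (-0.74 ± 0.186, adjusted p = 0.019). In spleen its groups overlapped, at 20.4 and 20.9 against 17.1 to 21.8 CPM. The lung call was lost without lung control 2 (-0.39) or either Vps34-deficient lung library (-0.59 and -0.74), and in a fit to lung libraries alone (-0.74).

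Phlpp1 had its clearest genotype difference in an intron at +16.0 kb (chr1:106187478-106187933). The values were 3.83 and 4.68 CPM in spleen control, 1.1, 1.15, 1.88 and 2.08 CPM in spleen Vps34-deficient, 3.4 and 3.95 CPM in lung control and 0.975 and 1.27 CPM in lung Vps34-deficient libraries. All 4 controls lay above all 6 Vps34-deficient libraries, and with Pik3ca +40.3 kb it was 1 of 2 member peaks called in both tissues. The log2 fold change was -1.43 ± 0.317 (adjusted p = 0.019) in spleen, -1.75 ± 0.436 (adjusted p = 0.0186) in lung and -1.54 ± 0.257 (adjusted p = 0.000313) on average. The average call held in all 19 alternatives, whereas the spleen call was lost without spleen control 1 (-1.63) or 2 (-1.32), without spleen Vps34-deficient 2 (-1.34) or 4 (-1.32) and with a replicate block (-1.495). The lung call was lost without lung control 2 (-1.59) or Vps34-deficient lung library 1 (-1.48) or 2 (-1.86), and in a fit to lung libraries alone (-1.74).

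Inpp4b, by far the longest member, had 3 genotype-called peaks, all intronic and all lower. At +414.3 kb (chr8:81756692-81757087) lung control libraries held 11.5 and 16.8 CPM and lung Vps34-deficient libraries 6.66 and 6.99 CPM, and spleen values overlapped at 7.44 and 7.58 against 4.03 to 7.83 CPM. The lung effect was -1.09 ± 0.277 (adjusted p = 0.0211) and the average effect -0.66 ± 0.193 (adjusted p = 0.0309), and both calls were lost without lung control 2 (-0.73 and -0.50) or either Vps34-deficient lung library (-1.04 to -0.57). The lung call was also lost in a fit to lung libraries alone (-1.08). At +437.8 kb the groups did not overlap in either tissue, with 4 and 5.44 against 1.95 to 3.79 CPM in spleen and 2.34 and 4.23 against 1.27 and 1.38 CPM in lung (-0.90 ± 0.251, adjusted p = 0.025). That call was lost without spleen control 1, lung control 2 or either Vps34-deficient lung library, with values of -0.88 to -0.72. At +269.1 kb (chr8:81611224-81612075) both lung controls held about 12 CPM (11.9 and 12), against 3.6 and 5.85 CPM in lung Vps34-deficient and 5.17 to 6.2 CPM in all spleen libraries. This lung effect of -1.34 ± 0.257 (adjusted p = 0.00249) was lost without lung Vps34-deficient 2 (-0.98).

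The 10 peaks called on average had mean levels of 0.742 to 8.05 CPM with a median of 3.105 CPM, close to the median of 3.26 CPM of the 177 uncalled members, which reached 147.2 CPM. Among the 22 peaks near a start 1 was called on average and among the 165 others 9 were called, beside 2.93% and 8.77% of such peaks in the whole table. At the strongest promoter peak of each gene, no average genotype effect was called. The largest of the 9 was at the Inpp5d peak at +1.5 kb described above (-0.38 ± 0.133, adjusted p = 0.0751), which was called in lung. Pik3r1 held 127 and 130 CPM in spleen control and 123 to 136 CPM in spleen Vps34-deficient libraries, 105 and 111 CPM in lung control and 113 and 116 CPM in lung Vps34-deficient libraries (0.04 on average). Phlpp1 held 154 and 162 against 140 to 155 CPM in spleen and 141 and 158 against 133 and 139 CPM in lung (-0.13). For Pik3ca, Pik3cb, Pik3cd, Pik3cg, Pik3r5 and Inpp4b the average log2 fold changes were 0.05, 0.05, -0.17, -0.03, -0.05 and -0.12. The small effect at Pik3cg turned positive without lung control 1 (0.02) or lung Vps34-deficient 1 (0.00153), and the one at Pik3r1 fell to just below (-0.00124) without spleen Vps34-deficient 1.

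**Figure D3:**
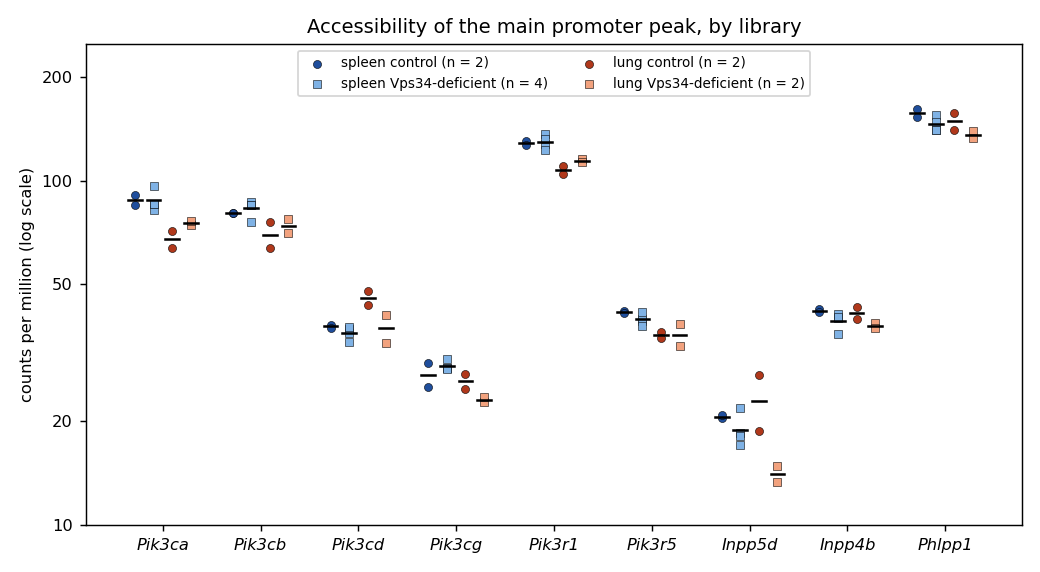
CPM of the strongest promoter peak of each member in every library on a log axis, coloured by group. Levels separate the genes, from about 13.3 to 27.2 CPM at Inpp5d up to 133 to 162 CPM at Phlpp1, far more than they separate the groups within a gene.

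Summed over all peaks of a gene and tested over 17619 genes at an adjusted p below 0.05, Pik3r5 was the 1 member called for genotype, and it was lower. Its sum was 141.1 and 151.2 CPM in spleen control, 124.4 to 144.4 CPM in spleen Vps34-deficient, 160.3 and 180.6 CPM in lung control and 131.3 and 132.0 CPM in lung Vps34-deficient libraries. Groups overlapped in spleen and did not overlap in lung. The average log2 fold change was -0.24 ± 0.0648 (adjusted p = 0.0424), against a background of 3.25% of genes lower and 2.54% higher. In lung alone it was -0.40 ± 0.0882 (adjusted p = 0.0194), again the 1 member called, where 3.08% of genes were lower and 0.761% higher. The average call was lost without spleen control 2, spleen Vps34-deficient 1 or 2, lung control 2 or either Vps34-deficient lung library, with values of -0.24 to -0.17. The other sums were not called for genotype: Phlpp1 had -0.15 ± 0.0511 (adjusted p = 0.0821), Inpp5d -0.18 ± 0.0762 (adjusted p = 0.171), Pik3ca -0.12, Pik3cg -0.09, Pik3cd -0.05, Inpp4b 0.02, Pik3cb 0.05 and Pik3r1 0.07. By the correlation of log CPM sums over the 10 libraries, the genes most like Pik3r5 were Cdkn1a (r = 0.974), Gabpb1 (0.972) and Vmp1 (0.971), a description over libraries that share depth and group structure.

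Between tissues, more member peaks were called than between genotypes. Averaged over genotypes, 19 of 187 were higher in lung (10.2%) and 14 lower (7.49%), against 18.4% and 6.51% of all tested peaks, so the share of lung-higher sites was below the background and that of lung-lower sites near it. In control cells 13 were higher and 5 lower, against 11.8% and 3.53%, and in Vps34-deficient cells 10 were higher and 11 lower, against 12.4% and 4.72%. Groups that did not overlap within either genotype, in the same direction, were found for 36 members (19.3%) and 27.8% of all peaks. The average calls were in all 9 genes, and 26 of the 33 were in introns. Scaling by library size alone turned the average split into 16 higher and 20 lower, against 17.4% and 8.5% of all peaks at that scaling. The control count of 18 fell to 8 without spleen control 1, and the count of 21 in Vps34-deficient cells fell to 11 without lung Vps34-deficient 2.

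Phlpp1 and Inpp4b held 13 of the 19 lung-higher peaks (68.4%) and 94 of the 187 tested peaks (50.3%). The Phlpp1 intronic peak at +146.8 kb (chr1:106318339-106318799) held 18.3 and 19.5 CPM in spleen control and 12, 13.3, 14.1 and 15.8 CPM in spleen Vps34-deficient libraries, against 35.7 and 39 CPM and 29.6 and 33 CPM in the lung. Every lung library was above every spleen library, with an average tissue effect of 1.16 ± 0.101 (adjusted p = 1.32e-08). The same peak was lower in Vps34-deficient libraries of both tissues without overlap, by -0.38 on average (adjusted p = 0.0193), which was under the fold threshold for a call. Of the 7 Phlpp1 peaks called between tissues, 6 were higher in lung and 1, at +32.4 kb, was lower, by -0.56 and by -0.49 without lung Vps34-deficient 2, under the fold threshold. The higher call at +149.9 kb (0.51) lay at the fold threshold and was lost in 12 of its 19 alternatives (0.33 to 0.49), DESeq2 and other scalings among them. The one at +181.2 kb (0.74) was lost in 5 of the 10 fits that left out a library (0.57 to 0.71) and in no other alternative.

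In Inpp4b, peaks of both directions were found. The peak at +502.7 kb (chr8:81845132-81845342), at the start of a shorter transcript, held 8.73 and 9.64 CPM in spleen control, 11.4 to 16.6 CPM in spleen Vps34-deficient, 19.9 and 33.2 CPM in lung control and 27.6 and 40.2 CPM in lung Vps34-deficient libraries. All lung libraries were above all spleen libraries (1.44 ± 0.145, adjusted p = 5.61e-08). The peak at +276.6 kb was likewise higher in lung, at 12.3 to 19.1 against 6.24 to 8.54 CPM (1.19 ± 0.149, adjusted p = 1.29e-06). The peak at +393.6 kb (chr8:81735636-81736592) was lower, with 25.8 to 30.1 CPM in the 6 spleen libraries and 17.9 to 18.6 CPM in the 4 lung libraries (-0.58 ± 0.0972, adjusted p = 6.21e-05). In all, 7 Inpp4b peaks were called higher and 5 lower in lung. The calls at +276.6, +305.9 and +502.7 kb (higher) and at +393.6, +423.0 and +460.0 kb (lower) held in all 19 alternatives. Of the other higher peaks, +124.4 kb lost its call in 7, +171.3 kb in 3, +414.3 kb in 5 and +659.0 kb in 1 of the 10 fits that left out a library, and the lowest values over those fits were 0.89, 0.98, 0.38 and 1.09. Of the other lower peaks, +437.8 kb lost its call in 5 and +539.3 kb in 4 of the fits that left out a library, with values up to -0.65 and -0.39. Both calls were also lost with a filter of 30 counts (-0.71 and -0.52), GC offsets (-0.63 and -0.54) and a replicate block (-0.58 and -0.58). The one at +539.3 kb was lost with a chromosome Y covariate too (-0.54).

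**Figure D4:**
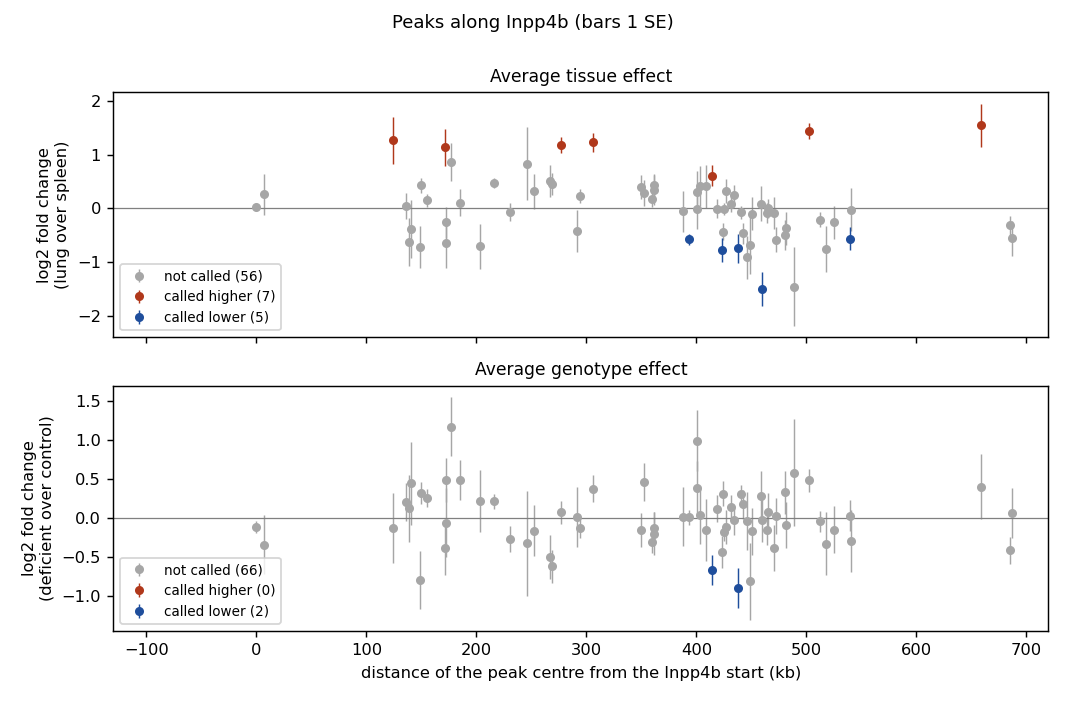
Log2 fold changes of the Inpp4b peaks by distance from the annotated start in kb, average tissue effect and average genotype effect in separate panels, with bars of 1 SE and red and blue marking peaks called higher and lower. Tissue-called peaks higher in lung run from +124.4 to +659.0 kb, and those lower in lung lie between +393.6 and +539.3 kb.

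The remaining members were called between tissues at few sites. Inpp5d had 1 peak that was higher and 2 intronic peaks that were lower in lung, all at low levels. The higher one, upstream at -6.2 kb (chr1:87613984-87614201), held 0.357 and 0.413 CPM in spleen control, 0.287 to 1.22 CPM in spleen Vps34-deficient, 0.851 and 0.988 CPM in lung control and 1.69 and 2.27 CPM in lung Vps34-deficient libraries. Lung was above spleen within each genotype without overlap (1.43 ± 0.426, adjusted p = 0.012), a call lost without lung Vps34-deficient 1 (1.296) and with a replicate block (1.271). The lower peaks counted, at +86.2 kb, 67 fragments in spleen and 3 in lung, a ratio of spleen to lung CPM of 9.76 (95% counting interval 3.2 to 48.5), and at +92.2 kb 88 and 8 fragments, a ratio of 4.81 (2.34 to 11.5). Pik3r1 was lower in lung at 2 peaks, the +7.2 kb site (-0.67, adjusted p = 0.0313, lost in 5 of the 10 fits that left out a library) and the strong peak at +48.9 kb, with 23.8 to 32.1 CPM in spleen and 16.8 to 21.9 CPM in lung (-0.51 ± 0.0967, adjusted p = 0.000255), a call that fell under the fold threshold without lung Vps34-deficient 2 (-0.46). Both calls were also lost with a filter of 30 counts (-0.62 and -0.46), GC offsets (-0.58 and -0.46) and a replicate block (-0.71 and -0.49). Pik3cg was lower at the promoter-proximal peak at +1.6 kb (-0.57 ± 0.153, adjusted p = 0.006, but -0.46 and not called without lung Vps34-deficient 2), and Pik3cd at a pair of peaks beyond its end that also lie within 10 kb of Clstn1, at +54.2 kb (-0.97, adjusted p = 0.00186) and at +55.1 kb (-0.70, adjusted p = 0.0289), the latter lost in 4 of the 10 fits that left out a library. The call at +55.1 kb was also lost with GC offsets (-0.57) and a replicate block (-0.72). Pik3cb and Pik3r5 had 2 lung-higher peaks each and no lung-lower peak. Both Pik3cb calls were marginal, at +114.0 kb beyond its end (1.11, adjusted p = 0.047), where the nearest start is that of Gm1123, lost in 7 of the 10 fits that left out a library, and at +44.6 kb (1.27, adjusted p = 0.0479), lost in 8. Over all alternatives, library-size scaling and no filter on low counts among them, the first was lost in 11 of 18 and the second in 11 of 17. Of the Pik3r5 peaks, +4.4 kb (0.93, adjusted p = 0.00252) held its call in all 19 alternatives, and +11.7 kb (1.297, adjusted p = 0.024) lost it in 4 of those 10 fits. At +4.4 kb the lung control libraries stood above every other library, and among Vps34-deficient cells alone no Pik3r5 peak was called between tissues. Pik3ca had 1 of each, the higher one being the exonic +40.3 kb site (1.09, adjusted p = 0.000446) and the lower one +11.5 kb (-1.33, adjusted p = 0.00333). Among Vps34-deficient cells alone the effect at +40.3 kb was 0.80 (adjusted p = 0.0685) and not called. Its values there overlapped, at 2.76 and 5.08 CPM in lung and 1.88 to 2.87 CPM in spleen.

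As sums over all peaks, Phlpp1 (0.16 ± 0.0513, adjusted p = 0.0269) and Inpp4b (0.15 ± 0.0557, adjusted p = 0.0453) were higher in lung and Pik3cg (-0.19 ± 0.0585, adjusted p = 0.0189) was lower, where 16% of all genes were higher and 13.3% lower. These small shifts depended on single libraries and on the processing. Of the 10 fits that left out a library, the Inpp4b call was lost in 8, all but those without spleen Vps34-deficient 4 or lung Vps34-deficient 2 (0.12 to 0.17). The Phlpp1 call was lost in 4, without spleen control 1, spleen Vps34-deficient 3, lung control 2 or lung Vps34-deficient 1 (0.12 to 0.15). The Pik3cg call was lost in 2, without either Vps34-deficient lung library (-0.18 and -0.15). A replicate block also lost the Phlpp1 (0.14) and Pik3cg (-0.18) calls. Summing only peaks within 2 kb of the gene lost the Phlpp1 call (0.13), and median-of-ratios scaling the Inpp4b call (0.13). With library-size scaling, 0 members were higher and 3 lower, against 13.9% and 27% of all genes at that scaling. As an unweighted mean over the peaks of the log2 fold change, the tissue effect was 0.35 for Phlpp1, 0.01 for Inpp4b and -0.13 for Pik3cg. Pik3r5 was higher in lung among control cells (0.30 ± 0.0867, adjusted p = 0.0309) and had 0.02 among Vps34-deficient cells, with the lung control libraries shared by this contrast and by its genotype effect in lung.

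**Figure D5:**
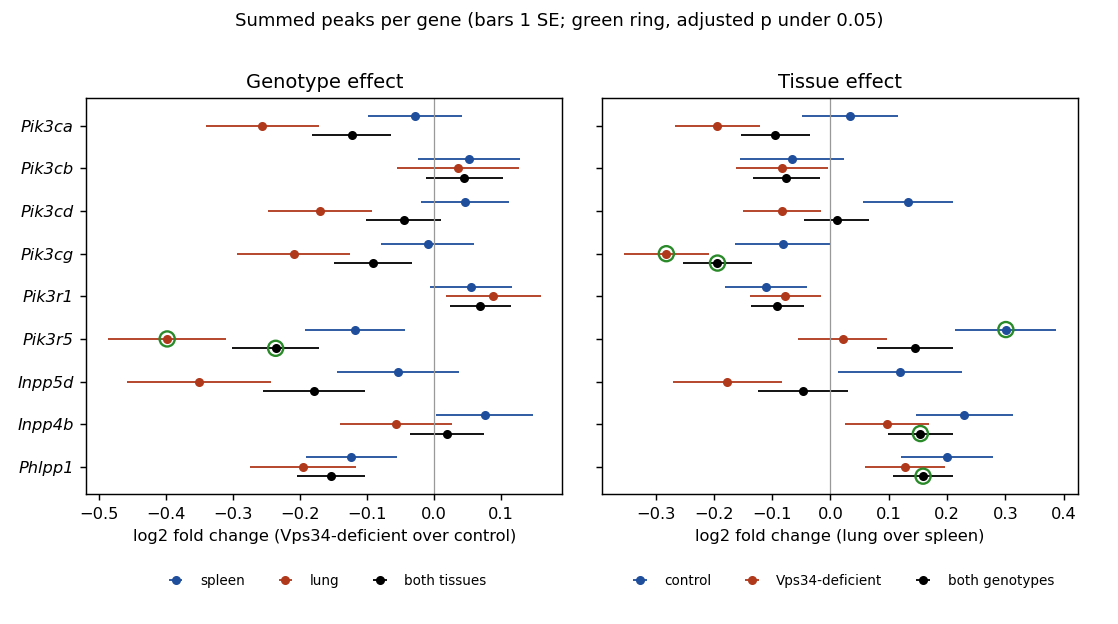
Log2 fold changes of the summed peaks of each member with bars of 1 SE, for genotype effects (left) and tissue effects (right), each within groups and on average; green rings mark an adjusted p below 0.05. Pik3r5 is ringed for the genotype effect in lung (-0.40) and on average (-0.24).

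Whether the genotype effect differed between lung and spleen was tested as an interaction. It was called for 0 member peaks and 0% of all tested peaks by edgeR, and for 0 member peaks by DESeq2. Of the member peaks, 18 (9.63%) had an unadjusted p below 0.05, against 7.28% of all, and the smallest adjusted p among members was 0.407. The peaks with lung-called effects and flat spleen values had unadjusted p-values of 0.00106 at Inpp4b +269.1 kb, 0.00259 at Pik3r5 +4.4 kb, 0.0102 at Pik3r1 +24.8 kb and 0.0129 at Pik3r1 +7.2 kb, by edgeR's quasi-likelihood test. None passed the adjustment over all peaks, so a difference between the tissues was not shown for these sites.

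A list of 31 other genes of the pathway, with 242 tested peaks, was read in the same way. Averaged over tissues, 7 of its peaks were higher (2.89%) and 4 lower (1.65%) for genotype, against the 3.52% and 4.05% given above for all peaks. The peak of Pik3ap1, the BCAP adaptor that brings class I PI3K to receptors, at chr19:41339028-41339709 was lower in both tissues, by -0.79 ± 0.194 in spleen (adjusted p = 0.0368) and -1.41 ± 0.247 in lung (adjusted p = 0.00108). The higher peaks included 1 each in the regulatory subunit genes Pik3r3 (0.96) and Pik3r6 (0.82) and a pair in Rheb (0.92 and 0.87), which encodes the small GTPase that activates mTORC1. The remaining lower peaks were in Phlpp2 (-0.67), Rptor (-0.57) and the class II kinase gene Pik3c2b (-1.30). As sums, 0 of the 31 genes were higher and 2 lower (6.45%), against 2.54% and 3.25% of all genes, Phlpp2 (-0.27, adjusted p = 0.0234) and Pik3ap1 (-0.19, adjusted p = 0.0442). Between tissues, 22 peaks were higher (9.09%) and 19 lower (7.85%) in lung, against 18.4% and 6.51% of all peaks. As sums, 3 genes were higher (9.68%) and 2 lower (6.45%) in lung, against 16% and 13.3% of all genes, and they included Pik3r6 (0.55) and Rptor (0.27), which were higher, and Foxo3 (-0.21) and Tsc1 (-0.33), which were lower.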

How the data were processed

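Bulk ATAC-seq had been run on sorted Tregs, and 10 libraries (2 control and 4 Vps34-deficient from spleen, 2 and 2 from lung) were used as labelled. The study's methods state the spleen numbers the other way round; the labels, the series' design and the column names were followed. The deposited table holds raw counts per merged peak, which the authors made by trimming, aligning with BWA, removing duplicates, applying the Tn5 offset, keeping nucleosome-free fragments, calling peaks per sample with MACS2 and merging the peaks that recurred among the replicates of a genotype. The submitters' processing notes name MACS2 2.1.0.20150603, Picard 1.65, cutadapt 1.9, SAMtools and bedtools, and GRCm38 (mm10), whereas the methods name an older build. Of 21911 gene starts in GRCm38, 51.2% fell in a peak, against 1.99% to 2.83% after shifting the positions, so GRCm38 coordinates were used. Between 91.5% and 96.5% of counts were even, as if both ends of a fragment had been counted, so a halved table was tried as an alternative.

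Counts were tested with edgeR 4.0.16 in R 4.3.3 (filterByExpr, TMM factors of 0.959 to 1.04, quasi-likelihood test) in fits to all 10 libraries with 4 group means, or with tissue and genotype as terms for average effects. Adjusted p-values are Benjamini-Hochberg over all tested peaks, or over all genes for counts summed per gene. CPM values are scaled to the library total and not to peak length. Intervals of ratios of small counts are exact, on halved counts, and cover counting error only. Peaks were named by a rule: the strongest promoter peak of each gene, the gene's smallest p in the average genotype effect, and up to 3 called peaks per contrast and direction whose groups did not overlap. The other called peaks that the text describes were chosen after their values were seen. The members, the gene lists and this rule were chosen with earlier results of these data known. The code was tested on simulated data. Alternatives were DESeq2 1.42.0, other scalings and filters, GC offsets, a chromosome Y covariate, a replicate block and leaving out each library. No column of comparisons by the authors was in the table. Sequence was read from the RefSeq GRCm38 genome, and genes from GENCODE. Some genes of the pathway list are counted but not reported here by name.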

Additional observations from a re-analysis of the deposited data

Results flagged for a closer look

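Among 63 sets of 4 values from the Vps34-deficient spleen libraries, 3 had 1 library far from the others by Dixon's criterion, where chance gives about 1 in 20 sets. The Pik3r1 peak at +24.8 kb had a ratio of 0.985, with replicate 1 low at 1.81 CPM beside 2.44 to 2.45 CPM. At the Pik3cg promoter peak at -0.1 kb the ratio was 0.954, with replicate 3 high at 30.4 CPM beside 28.4 to 28.5 CPM. The Inpp4b peak at +269.1 kb had a ratio of 0.878, with replicate 3 high at 6.14 CPM beside 5.17 to 5.29 CPM.

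The Phlpp1 peak at +181.2 kb was flagged for opposite genotype effects in the tissues. Spleen control libraries held 1.51 and 2.58 CPM and spleen Vps34-deficient libraries 2.8 to 3.52 CPM, whereas lung control libraries held 4.8 and 4.89 CPM and lung Vps34-deficient libraries 2.75 and 4.71 CPM. The log2 fold change was 0.59 in spleen and -0.379 in lung, neither of them called, and the interaction had an edgeR p of 0.0431 before adjustment and did not pass the adjustment over all peaks.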

How the results depend on the processing

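There were 2 libraries in 3 of the 4 groups, and the 10 sites called for genotype on average lie at or below 8.05 CPM; the part of depth and replicate number in the counts of calls was not tested. Member peak counts are given as totals. In spleen (2 called), 0 were called with a replicate block or at an adjusted p below 0.01, 4 from spleen libraries alone and 0 to 4 when leaving out each library. In lung (10), 3 were called from lung libraries alone and 3 at an adjusted p below 0.01, and 2 to 17 when leaving out each library. The average genotype count (10) was 4 at an adjusted p below 0.01, 15 by DESeq2 and 15 on halved counts, and 5 to 12 when leaving out each library. The tissue count in control cells (18) was 10 at an adjusted p below 0.01 and 8 to 22 without single libraries; in Vps34-deficient cells (21) it was 9 with the block, 10 at an adjusted p below 0.01 and 11 to 28 without single libraries. The average tissue count (33) was 21 among peaks with a mean of 30 counts or more and 20 at an adjusted p below 0.01. For gene sums, the genotype count of 1 became 0 to 1 and the tissue count of 3 became 0 to 3 without single libraries. The cause of these changes was not tested.

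Same-numbered libraries of the genotypes did not deviate alike from their group means (correlation -0.0847 and -0.092 in spleen, -0.174 in lung). In a group of 2 libraries the deviations mirror each other, so this check cannot decide whether replicate numbers pair the samples. With the block, 7 average and 7 lung peaks were called, all 7 in lung lower. Crossing the lung numbers, a choice made after seeing the data, also gave 7 lower.

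Among the effects named, signs reversed only where the effect was not called. For average tissue effects, GC offsets gave 0.01222 at the Pik3r5 promoter, 0.01396 at Inpp5d +1.5 kb and 0.09761 at the Phlpp1 promoter, which was 0.01949 with the filter of 30 counts. The Inpp4b promoter gave -0.03677 by library size, -0.04112 without a filter and -0.01837 on halved counts. The Pik3cd sum gave -0.0514 by library size and -0.01054 by median of ratios, and the Inpp5d sum 0.01791 with the block. For average genotype effects, GC offsets gave -0.023 at Pik3cb +76.2 kb and the block -0.02002 for the Inpp4b sum. Leaving out single libraries gave, for genotype, -0.0908 to 0.02228 at the Pik3cg promoter, -0.001241 to 0.06119 at the Pik3r1 promoter, -0.09929 to 0.005212 for the Pik3cd sum and -0.03231 to 0.05413 for the Inpp4b sum. For tissue it gave -0.3098 to 0.01363 at Inpp5d +1.5 kb, -0.06217 to 0.05193 at the Inpp4b promoter, -0.1071 to 0.006139 at the Phlpp1 promoter, -0.04016 to 0.06041 for the Pik3cd sum and -0.1345 to 0.01217 for the Inpp5d sum. Taking the mean over a gene's peaks of the log2 fold change in place of its sum, which gives no test, moved 13 of the gene values by more than 1 SE. Signs then differed from the sums, none of them called, for the tissue effects of Pik3ca (0.02305), Pik3cb (0.5082) and Pik3cd (-0.2144) and the genotype effects of Pik3cd (0.1299) and Inpp4b (-0.005992). Of the other single-peak and gene-sum comparisons with an alternative, 1548 kept direction and side of the threshold, 215 lost their call and 5 gained one.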
